A study of Mus musculus with 2 samples.

Results

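The data describe 31 genes of cholesterol synthesis, uptake, storage and export, and of the sterol sensors that control them, in progenitors of group 2 innate lymphoid cells (ILC2), the bone marrow precursors of the lymphocytes that release type 2 cytokines in tissues. The genes were taken by symbol from a list of 31, and all 31 were found among the 27179 genes deposited. RNA was sequenced in 2 libraries of 1 group, each from a pool of 8 C57BL/6 mice 8 weeks of age whose ILC2 progenitors had been sorted by flow cytometry from bone marrow. The labels give no treatment, mutation, other genotype or second cell type, so the comparisons are between genes within these cells and between the pools. Pool 1 and pool 2 are names given by accession. Of the 2 files, 0 had a heading with the code of its own sample, since each names the other; files were matched to samples by their deposit record, and should the headings hold instead, pool 1 and pool 2 swap throughout.

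Cells make cholesterol from acetyl-CoA through mevalonate, farnesyl pyrophosphate and squalene. When sterols in the endoplasmic reticulum are low, the SREBP transcription factors, held there by SCAP and the INSIG proteins, are released, cut in the Golgi and switch on the enzymes of synthesis and uptake. When sterols are high, oxysterols activate the liver X receptors (LXR), which induce the exporters ABCA1 and ABCG1 and the ubiquitin ligase MYLIP, an enzyme that removes lipoprotein receptors. In lymphocytes this balance is known to shift with activation and division, since dividing cells need sterol for new membrane.

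Sequence elements of both sensors were looked for in the 250 bases before the annotated start of each gene, taken from RefSeq on build GRCm38.p6, the same assembly as mm10. Promoters of 24 of the 31 genes were matched by gene ID; the other genes are Fdft1, Sqle, Fdps, Soat2, Npc1, Stard4 and Abcg1. The sterol regulatory element was searched as TCACNCCAC and the LXR element, a direct repeat, as GGTNA followed after any 5 bases by GGTNA again, both on either strand. The stretches below are shown because they hold the matches found among these genes, with the match in capitals, each read 5′ to 3′ on the strand of its gene. The SREBP-type matches were in Hmgcs1 (chr13:119690174-119690262, plus strand) and Stard3 (chr11:98358118-98358205, plus strand). The LXR-type matches were in Abca1 (chr4:53159908-53160002, minus strand) and at a start of Srebf1 (chr11:60210599-60210693, minus strand), and both lay on the strand opposite to the gene.
Hmgcs1: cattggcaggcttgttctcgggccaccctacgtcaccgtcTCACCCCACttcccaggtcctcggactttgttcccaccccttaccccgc
Stard3: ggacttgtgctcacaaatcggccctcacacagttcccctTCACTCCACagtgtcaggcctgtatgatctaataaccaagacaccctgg
Abca1: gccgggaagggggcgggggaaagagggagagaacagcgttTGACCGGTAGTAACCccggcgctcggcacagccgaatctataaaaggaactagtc
Srebf1: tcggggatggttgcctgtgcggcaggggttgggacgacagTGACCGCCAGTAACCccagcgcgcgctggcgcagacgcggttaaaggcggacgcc

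The SREBP-type letters stood before 2 of the 24 genes (8.33%). This compares with 1.18% of the 8406 genes detected in these cells that had a promoter and 1.22% of all 27025 genes that had one. The LXR-type letters stood in 2 of 24 (8.33%), against 0.50% and 0.707%. The CCAAT box, CCAAT on either strand, is the site of the NF-Y factor that acts beside SREBP at sterol genes. It stood before 20 of 24 genes (83.3%), against 40.8% of detected genes and 37.5% of all. The E-box CACGTG, which SREBP can also bind, stood in 5 of 24 (20.8%), in Abca1, Dhcr7, Hsd17b7, Insig1 and Scap, against 10.3% and 6.86%. Overlaps between motifs were not removed, and a match is a description of letters, not of binding. A gene with several annotated starts was counted once, if any of them matched. The 24 genes had 33 starts and the 27025 genes 32851. A gene with more starts has more chances of a match, and this was not corrected for.

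Levels are RPKM, reads per kilobase of gene scaled to the depth of the library. Depth was 20216146 reads in pool 1 and 19834586 in pool 2, so a gene of 1 kb with 3 reads would have 0.148 and 0.151 RPKM. The ILC2 markers Gata3, Il7r, Il1rl1, Il17rb, Thy1, Ly6a, Rora and Id2 were at 56.0 to 1002 RPKM in pool 1 and 51.3 to 1319 in pool 2. The labelled cell type thus showed its defining genes, though not all at equal levels in the pools. Id2 was at 710 and 287 RPKM, and Il1rl1 at 173 and 262. RNA of other cells was present too. Summed neutrophil markers (8 genes) were at 959 RPKM in pool 1 and 2314 RPKM in pool 2, erythroid markers (8 genes) at 758 and 2141, and eosinophil markers (6 genes) at 55.0 and 652. Other lists went the other way. Stromal markers (6 genes) summed to 68.2 RPKM in pool 1 and 2.82 RPKM in pool 2, with Col1a1 at 40.5 and 0.889. Markers of B and plasma cells (7 genes) summed to 667 and 448, with Igkc at 205 and 48.4 and Igj at 13.2 and 0.672. Within these 2 lists, Pdgfrb (0.174 and 0.820) and Cd79b (33.5 and 47.8) were among the genes higher in pool 2. Of 11 macrophage markers, Lyz2, which neutrophils also express, was at 107 and 198 RPKM, and the other 10 ranged up to 5.44 and 5.73 RPKM (C1qa), with Mertk and Marco under 1 in both. The immediate early genes (8 genes, led in pool 1 by Zfp36 and Fos) summed to 9571 RPKM in pool 1 and 540 RPKM in pool 2. The part of other cells and of these gene programs in the values below was not tested, and in bulk RNA fewer cells of a type and less RNA per cell cannot be told apart.

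Nearly the whole set was expressed. At a detection level of 1 RPKM or more in both pools, 29 of 31 genes were detected, against a background of 40.5% of all 27179 genes. The 2 under that level were Nr1h3 and Soat2, which both had reads in both pools. At 10 RPKM or more in both pools stood 20 of the 31 genes, against 23.7% of all genes. Among detected genes these were 20 of 29, against 58.4% of all 11013 detected. The median gene of the set was at 12.3 RPKM in pool 1 and 12.7 RPKM in pool 2, a little under the median of all detected genes, 14.2 and 14.9. On the scale of mean log2(RPKM + 0.1) the medians were 3.65 for the set, 3.86 for all detected genes and -1.82 for all genes. The genes differed far more among themselves than the pools did. The SD of this level over the 31 genes was 1.72, and the typical SD between the pools (n = 2) was 0.18.

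**Figure D1:**
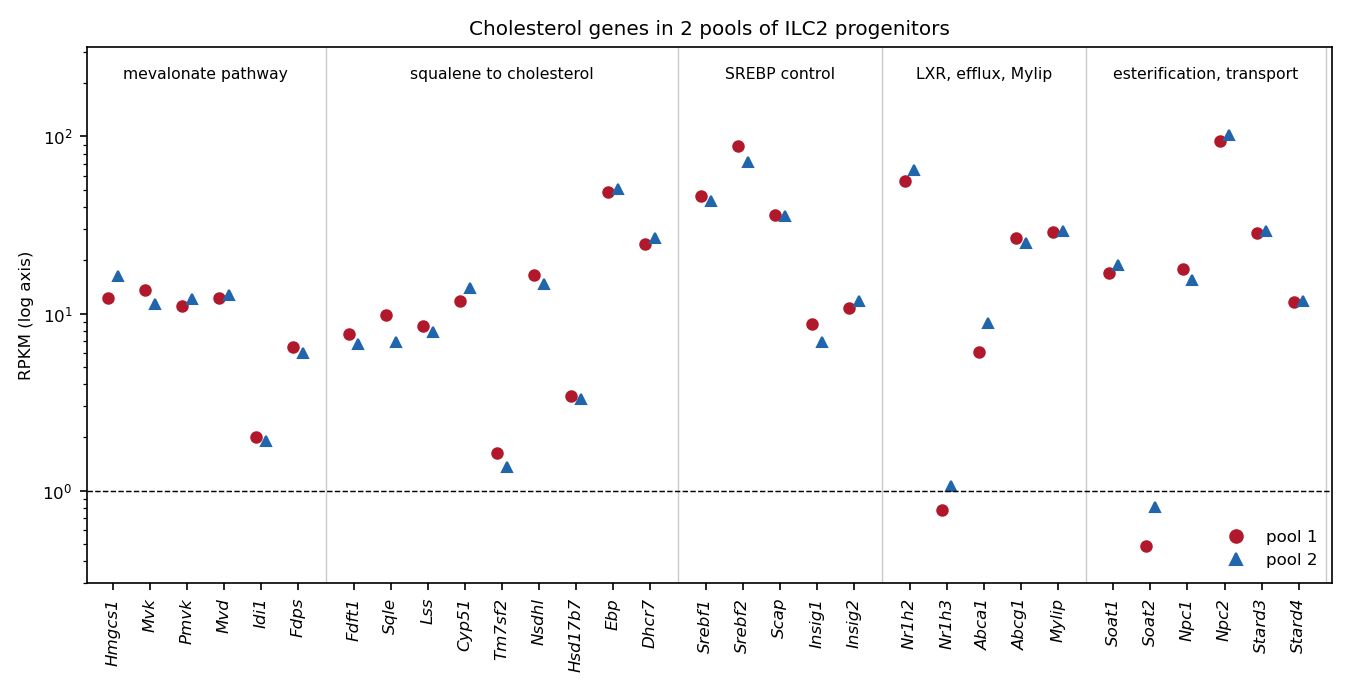
RPKM on a log axis of the 31 genes in pool 1 (circles) and pool 2 (triangles), grouped by role and in pathway order for the enzymes; the dashed line marks 1 RPKM. Npc2, Srebf2 and Nr1h2 stand highest, at 56.3 RPKM or more in both pools, and Nr1h3 and Soat2 lie lowest.

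**Figure D2:**
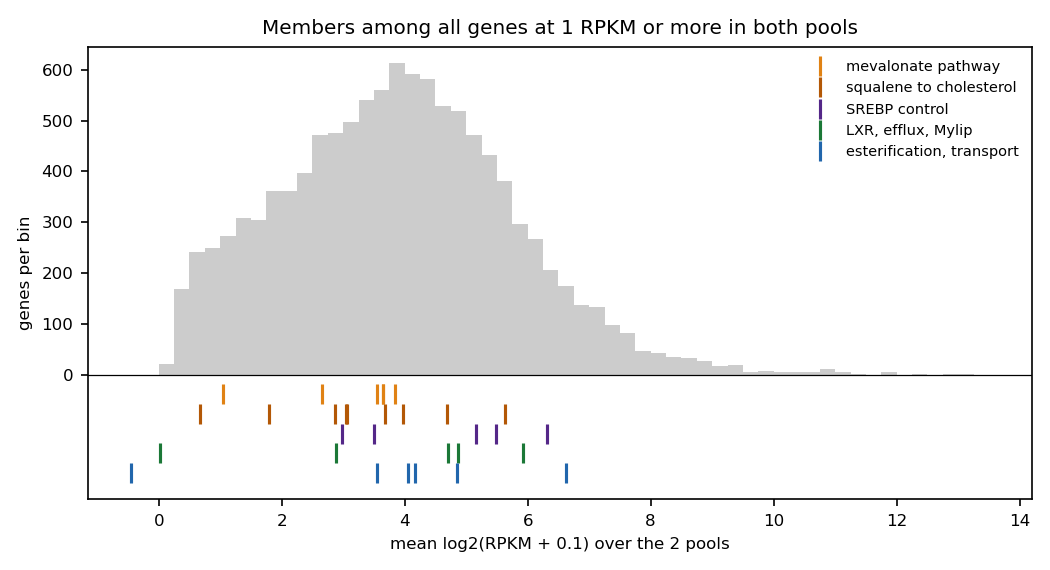
Histogram of mean log2(RPKM + 0.1) over the 2 pools for the 11013 genes at 1 RPKM or more in both, in genes per bin of level, with a tick for each of the 31 genes below it, coloured by role. The median of the set, 3.65, lies near that of all detected genes, 3.86; Nr1h3 and Soat2 are drawn although they are not among the detected genes.

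Of the 6 enzymes of the mevalonate pathway, 4 were at a similar, middling level, between 11.1 and 16.3 RPKM in both pools. Hmgcs1, the synthase that makes HMG-CoA and whose promoter holds the sterol element printed above, was at 12.3 RPKM in pool 1 and 16.3 RPKM in pool 2. Mvk, the mevalonate kinase, was at 13.5 and 11.3 RPKM in pools 1 and 2, Pmvk, which adds the next phosphate, at 11.1 and 12.1, and Mvd, which removes the carboxyl group, at 12.3 and 12.7. The ranges of Hmgcs1, Mvk and Mvd over the pools overlap, and Pmvk lay below Hmgcs1 and Mvd in both. The last steps were lower. Fdps, which makes farnesyl pyrophosphate, the branch point to sterols and to protein prenylation, was at 6.501 and 5.97 RPKM. Idi1, the isomerase ahead of it, was at 2.001 and 1.92 RPKM, which put it at the 7.6th and 6.1st percentile of detected genes. Of its annotated exon bases, 9.22% also belong to a gene on the opposite strand, and for Fdps 26.7% belong to another gene of the same strand; the strand setting of the counting is not given in the sources used here.

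From squalene onward the levels spread over a wider range, from 1.64 to 48.6 RPKM in pool 1 and from 1.36 to 50.7 in pool 2. The entry steps lay close together. Fdft1, the squalene synthase, was at 7.71 RPKM in pool 1 and 6.69 RPKM in pool 2, Sqle, the epoxidase that is a control point of the pathway, at 9.86 and 6.86, and Lss, the lanosterol synthase, at 8.48 and 7.88. Cyp51, the lanosterol demethylase, was at 11.7 and 13.9 RPKM. For Fdft1, 18.3% of the exon bases are shared with Ctsb on the opposite strand. The sterol-modifying enzymes diverged. Ebp, the sterol isomerase, was the highest enzyme of the set at 48.6 and 50.7 RPKM, above every other synthesis enzyme in both pools, and Dhcr7, which makes cholesterol from 7-dehydrocholesterol, followed at 24.6 and 26.6. Nsdhl, a sterol dehydrogenase, was at 16.4 and 14.7 RPKM. Hsd17b7, a keto-sterol reductase, was at 3.43 and 3.27 RPKM. Tm7sf2, a sterol reductase of the C14 bond with a known counterpart in the lamin B receptor, was the lowest enzyme at 1.64 and 1.36. Of its exon bases, 12.1% are shared with Vps51 on the same strand. Ebp and Dhcr7 thus stood at the 66.8th percentile of detected genes or above in both pools, while Hsd17b7, Idi1 and Tm7sf2 stood at the 15.7th or below.

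Ebp (chromosome X, 8185329 to 8193512, minus strand, GENCODE M21 on GRCm38) and Nsdhl are the 2 genes of the set on the X chromosome. The pools differed in sex-chromosome transcripts. Xist, transcribed from the inactive X of females, was at 11.1 RPKM in pool 1 and 3.89 RPKM in pool 2. The Y-linked genes Ddx3y and Eif2s3y were at 0.267 and 0.0840 RPKM in pool 1 and at 9.52 and 18.1 RPKM in pool 2. Across that difference the fold of pool 1 over pool 2 was 0.96 for Ebp (95% counting interval 0.90 to 1.03) and 1.11 for Nsdhl (0.96 to 1.30).

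The control genes of the SREBP system were the highest role group by median, at 36.1 RPKM in pool 1 and 35.6 RPKM in pool 2. Srebf2, whose protein drives the cholesterol enzymes (Entrez ID 20788, chromosome 15, 82147181 to 82205379, plus strand), was at 88.4 RPKM in pool 1 and 72.2 RPKM in pool 2, the second highest gene of the set. Srebf1, known chiefly for fatty acid synthesis genes and, in its SREBP-1c form, for induction by LXR (Entrez ID 20787, chromosome 11, 60199089 to 60222581, minus strand), was at 46.2 and 43.2. Srebf2 exceeded Srebf1 by 0.93 (log2) in pool 1 and 0.74 in pool 2, a mean of 0.84 ± 0.14 (SD, n = 2), or 1.91-fold and 1.67-fold. Values per gene do not separate the Srebf1 forms that start at different promoters. Scap, the escort that carries SREBP to the Golgi, was at 36.1 and 35.6 RPKM, with 13.2% of its exon bases shared with a gene on the opposite strand. The retention factors were lower: Insig1, itself an SREBP target, was at 8.78 and 6.93 RPKM, and Insig2 at 10.7 and 11.8. Insig2 was above Insig1 in both pools, by 0.28 and 0.76 (log2; mean 0.52 ± 0.34, n = 2), a difference not much larger than its spread. Ratios between genes were not tested, because an exact sign-flip test on 2 libraries cannot go below a two-sided p of 0.5.

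Of the LXR genes, the beta form carried nearly all of the receptor RNA. Nr1h2, which encodes LXR beta, the form found in most tissues (Entrez ID 22260, chromosome 7, 44549616 to 44553951, minus strand), was at 56.3 RPKM in pool 1 and 64.9 RPKM in pool 2. Nr1h3, which encodes LXR alpha, known from liver and macrophages, was at 0.777 RPKM in pool 1 and 1.06 RPKM in pool 2, from at least 32 and 43 reads. The log2 ratio of Nr1h2 over Nr1h3 was 6.01 and 5.80 (mean 5.90 ± 0.14, n = 2), and the plain RPKM ratio was 72.4 and 60.9. Low levels of macrophage markers, given above, were present beside the low Nr1h3 level, and their part in it was not tested.

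The classical LXR targets were expressed at different levels. Abcg1, which exports cholesterol to lipoprotein particles, was at 26.7 RPKM in pool 1 and 24.99 RPKM in pool 2. Mylip was at 28.9 and 29.2 RPKM, nearly equal in the pools. Abca1, which exports cholesterol to lipid-poor apolipoprotein A-I and holds the LXR-type letters printed above, was lower, at 6.04 RPKM in pool 1 and 8.80 RPKM in pool 2, from at least 1253 and 1790 reads. Abcg1 exceeded Abca1 by 2.13 and 1.496 (log2; mean 1.81 ± 0.45, n = 2), so the order was the same in both pools while the size of the gap was not.

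Of the esterification genes, Soat1 was the higher. Soat1, the enzyme that turns cholesterol into esters for storage in most cells, was at 17.0 RPKM in pool 1 and 18.7 RPKM in pool 2. Soat2, its counterpart of liver and intestine, was the lowest gene of the set at 0.489 and 0.806 RPKM, from at least 21 and 34 reads. The log2 ratio of Soat1 over Soat2 was 4.86 and 4.37 (mean 4.62 ± 0.35, n = 2). The genes that move cholesterol out of lysosomes were well expressed. Npc2, the soluble lysosomal carrier (Entrez ID 67963, chromosome 12, 84754562 to 84773152, minus strand), was the highest gene of the set at 94.3 RPKM in pool 1 and 102 RPKM in pool 2. Npc1, the membrane protein that receives cholesterol from it, was at 17.7 and 15.5 RPKM. Stard3, which passes sterol between late endosomes and the endoplasmic reticulum, was at 28.6 and 29.1 RPKM, and Stard4, a soluble sterol carrier and known SREBP target, at 11.6 and 11.7.

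Ordered by mean RPKM, the set formed 30 neighbouring pairs, of which 19 kept their order in both pools and 14 had ranges that did not overlap. The first 6 steps, from Npc2 through Srebf2, Nr1h2, Ebp, Srebf1 and Scap to Mylip, were all of the second kind. The steps from Fdft1 down to Nr1h3, through Fdps, Hsd17b7, Idi1 and Tm7sf2, were too. In the middle of the order, from Soat1 to Insig2, through Npc1, Nsdhl, Hmgcs1, Cyp51, Mvd, Mvk, Stard4 and Pmvk, no neighbours had separate ranges. Of these pairs, Npc1 over Nsdhl, Hmgcs1 over Cyp51 and Pmvk over Insig2 kept their order in both pools, and the others did not.

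The next comparison asked how far these genes differed between the pools. None of the 29 detected genes was 2-fold apart, which is near the background of 2.56% of all 11013 detected genes. None of the 29 was 1.5-fold apart, against 8.45%. Their median log2 ratio of pool 1 over pool 2 was 0.019, against -0.044 for all detected genes, and 15 of 29 were higher in pool 1, where 42.7% of all detected genes were. With the median ratio of all detected genes set to 1, 18 of 29 were higher in pool 1, so the direction of genes near equality depends on the scaling. There is 1 library a side and hence no replicate check on any difference between them, and these counts describe the 2 libraries.

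**Figure D3:**
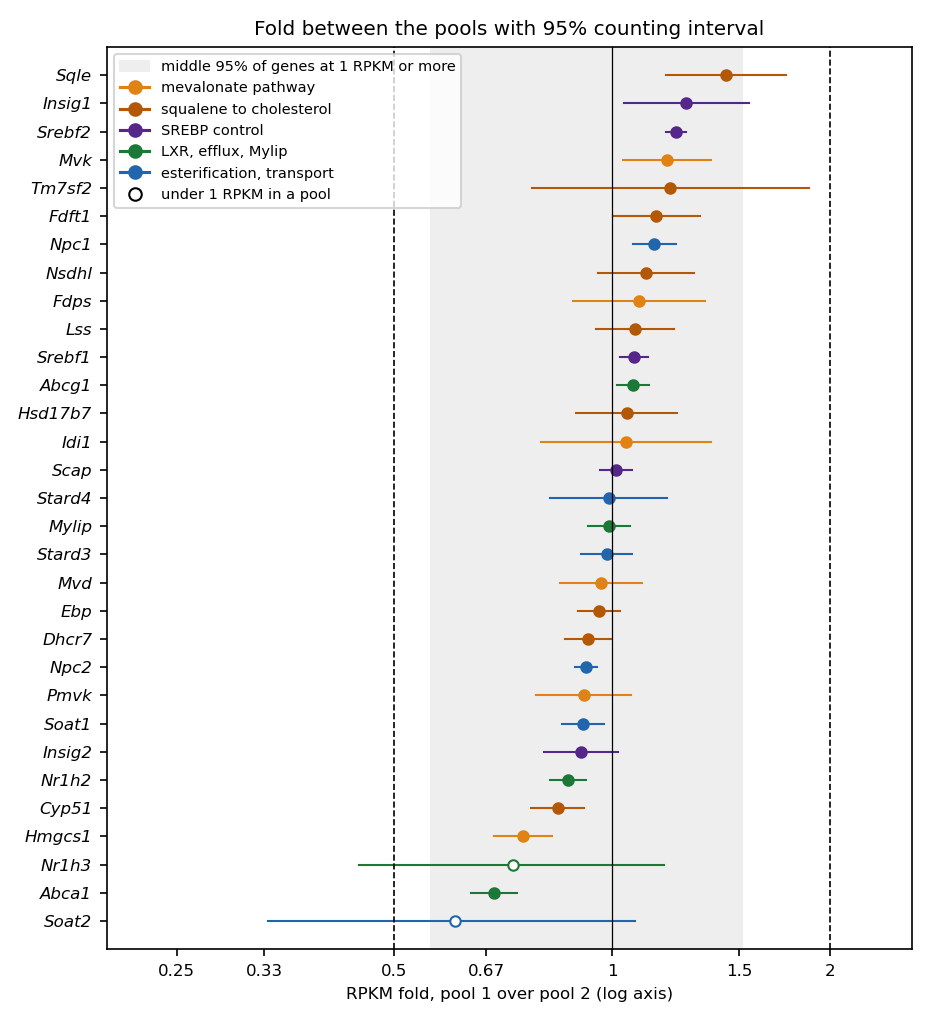
RPKM fold of pool 1 over pool 2 on a log axis for each of the 31 genes, with the 95% counting interval as a line, coloured by role; open points mark genes under 1 RPKM in a pool, the dashed lines 2-fold, and the grey band the middle 95% of all detected genes. No detected gene reaches a dashed line, and the extremes among them are Sqle at 1.44 and Abca1 at 0.69.

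Among the 29 detected genes, Sqle had the highest fold of pool 1 over pool 2, at 1.44 (95% counting interval 1.19 to 1.74), followed by Insig1 at 1.27 (1.04 to 1.55) and Srebf2 at 1.23 (1.19 to 1.27). At the other end of these 29 stood Abca1 at 0.69 (0.64 to 0.74), Hmgcs1 at 0.75 (0.69 to 0.83) and Cyp51 at 0.84 (0.77 to 0.91). Enzymes of synthesis were therefore found at both ends: Sqle was higher in pool 1, while Hmgcs1 and Cyp51 were lower there. The fold of Nr1h2 was 0.87 (0.82 to 0.92), and that of Abcg1 1.07 (1.02 to 1.12). The intervals cover counting error only. They excluded 1 for 15 of the 29 detected genes, against 50.8% of all detected genes, a share close to the background. The reads behind them are the smallest whole numbers that fit the deposited values, so true intervals may be narrower.

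**Figure D4:**
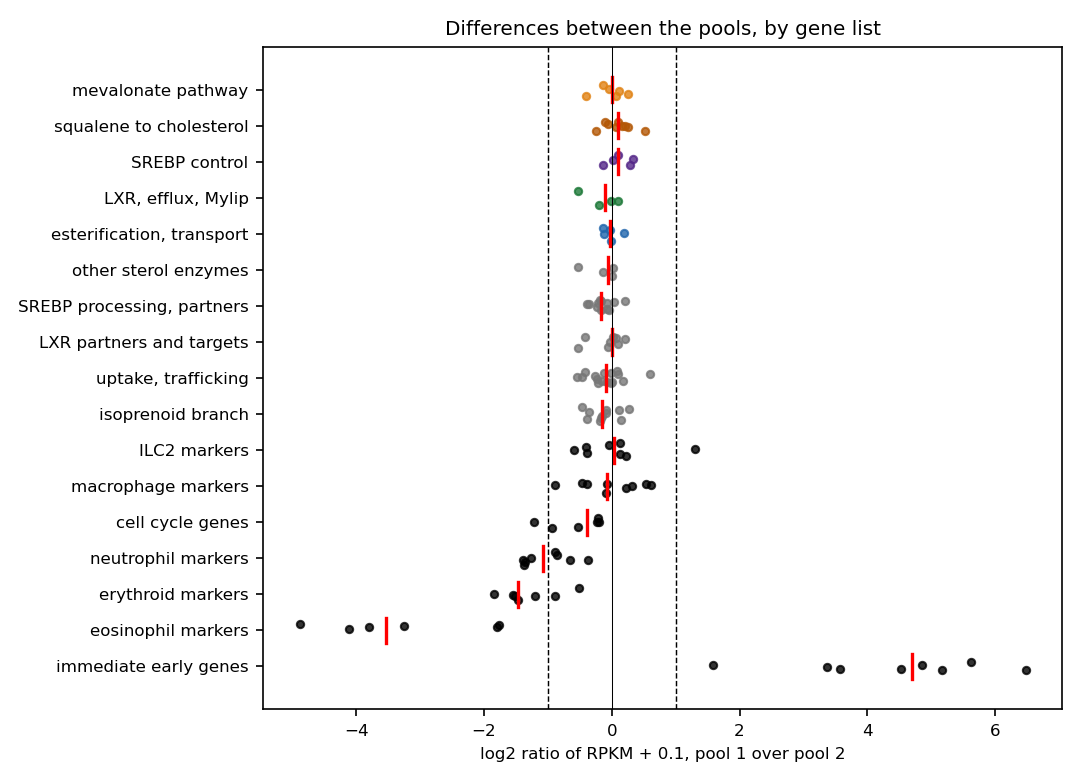
log2 ratio of RPKM + 0.1, pool 1 over pool 2, for the detected genes of each list (points) with the list's median (red line), the 5 role groups on top, then related pathway lists in grey and marker lists in black; dashed lines mark 2-fold. The cholesterol genes lie between -0.53 and 0.52, while immediate early genes have a median of 4.69 and eosinophil markers one of -3.53.

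By role, the median log2 ratios of detected genes were 0.0052 for the mevalonate enzymes, 0.10 for the enzymes from squalene on, 0.099 for the SREBP control genes, -0.11 for the LXR and efflux genes and -0.025 for esterification and transport. Over the same libraries, all 8 immediate early genes were at least 2-fold higher in pool 1 (median 4.69, log2), and the medians of neutrophil, erythroid, eosinophil and cell cycle genes were -1.08, -1.47, -3.53 and -0.39. The 8 ILC2 markers had a median of 0.041, with Id2 at 1.31 and Il1rl1 at -0.59. The 4 detected B and plasma cell markers had a median of -0.13, with Igkc at 2.08. No stromal marker reached 1 RPKM in both pools, and Col1a1, Col1a2 and Sparc were higher in pool 1, by 5.36, 5.09 and 3.94. The rest of the stromal list was under 1 RPKM in both pools and mixed. Cxcl12 was at 0.62, Lepr at -0.0051 and Pdgfrb, higher in pool 2, at -1.75. The difference between these lists and the cholesterol genes was not tested.

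Other genes of the pathway, 61 in 6 lists, were mostly detected as well. At 1 RPKM or more in both pools stood 53 of them, against 40.5% of all genes. At 10 RPKM or more in both were 43 of the 61, against 23.7% of all genes. Among detected genes these were 43 of 53, against 58.4% of all 11013 detected. None of the 53 was 2-fold apart, near the background of 2.56% of all detected genes, and 1 was 1.5-fold apart, against 8.45%. This was Gramd1a, a carrier of plasma membrane cholesterol to the endoplasmic reticulum, at 37.5 RPKM in pool 1 and 24.8 RPKM in pool 2, a fold of 1.51 (95% counting interval 1.41 to 1.62). The median log2 ratio of the 53 was -0.095, against -0.044 for all detected genes. Of the 53, 16 were higher in pool 1, where 42.7% of all detected genes were, and 20 were with the median ratio of all detected genes set to 1, a scaling of this count that was added after seeing the data.

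All 4 other sterol enzymes listed were detected, against 40.5% of all genes. Sc5d, the sterol desaturase, was at 24.5 RPKM in pool 1 and 24.4 RPKM in pool 2, and Sc4mol, the older symbol of the methyl sterol oxidase Msmo1, at 20.3 and 22.3. Acat2, which makes acetoacetyl-CoA for the first step, was lowest at 5.41 and 7.87 RPKM. Among 12 genes of SREBP processing and its partner factors, all were detected, against the same 40.5%. Aup1, a factor of sterol-dependent protein degradation, led at 185 RPKM in pool 1 and 160 RPKM in pool 2, and Mbtps1, the protease that makes the first cut in SREBP, was at 40.1 and 45.6. Mbtps2, the protease of the last cut, was lowest at 7.10 and 7.96 RPKM. The NF-Y genes Nfya, Nfyb and Nfyc, whose box was frequent in the promoters above, were at 29.2, 22.7 and 11.8 RPKM in pool 1 and 37.3, 26.3 and 13.2 in pool 2.

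LXR acts as a dimer with RXR, and all 3 RXR genes were expressed. Rxrb was at 45.9 RPKM in pool 1 and 45.5 RPKM in pool 2, Rxra at 22.9 and 21.9, and Rxrg at 17.2 and 24.9. Of the 9 genes listed as LXR partners or targets beyond the set, Smpdl3a, a secreted phosphodiesterase, was highest at 208 and 211 RPKM. Whether LXR controls it or the other listed genes in these mouse cells was not tested. The desaturase gene Scd2 was at 54.4 and 56.5 RPKM and Lpcat3, which remodels phospholipids, at 45.3 and 60.4, while Scd1, the form that predominates in liver, was under 1 RPKM in both at 0.685 and 0.740. Fasn, the fatty acid synthase, was at 28.1 and 24.4 RPKM.

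Of 19 uptake and trafficking genes, 16 were detected, against 40.5% of all genes. Tspo, a sterol-binding protein of the outer mitochondrial membrane, was highest at 331 RPKM in pool 1 and 313 RPKM in pool 2, followed by Vapa, an anchor for lipid carriers at the endoplasmic reticulum, at 65.6 and 65.9, and Scarb2 at 38.05 and 41.4. Lipa, the lysosomal enzyme that frees cholesterol from lipoprotein esters, was at 27.4 and 39.8 RPKM. Receptors of lipoproteins were uneven. Scarb1, the receptor for high-density lipoprotein, was at 11.2 and 12.4 RPKM. Lrp1 was at 0.272 and 0.335 RPKM and Vldlr, the lowest of the list, at 0.0357 and 0.0303 RPKM, from at least 6 and 5 reads.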

How the data were processed

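RNA of sorted cells was prepared with the RNeasy Micro kit, and 100 ng of total RNA entered the Illumina TruSeq RNA kit, per the labels' protocols. The authors deposited RPKM values per Entrez gene ID. Tools in the submitters' processing notes are featureCounts, CASAVA 1.8.2 and edgeR (3.8.2 and 3.22.0), with build mm10 and no roles; no aligner or strand setting is given in the sources used here.

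Deposited values were used unscaled. Levels and ratios are log2(RPKM + 0.1), which understates differences of low genes; "fold" is the plain RPKM ratio. Library totals were found from the steps between RPKM values. With them, 17233 of 17233 genes above 0 had whole reads in both pools at a length of 20 to 130000 bases, to the precision of the last printed digit; of 1000 genes tried with totals off by 1 part in 1000, 0.60% did. The recovery was tested on simulated data. Reads are the smallest that fit, hence "at least", and gave exact Clopper-Pearson 95% intervals of the fold, which cover counting error only. No test was made between conditions, since there is 1 group, and nothing beyond the pooling of 8 mice says how far the libraries were prepared apart. Genes were located and exon overlaps measured with GENCODE M21 (GRCm38). Python 3.11.15, pandas 2.3.3 and scipy 1.17.1 were used.

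The genes, lists and rules were chosen with earlier results of these data known. The rule for named genes takes the 31 genes, and of each pathway list the 3 highest, the lowest and any member 2-fold apart; some genes it takes are not reported here. Gramd1a, the RXR and NF-Y genes, Fasn, Lipa, Scarb1, Lrp1, and Gpr183 where it is described below, were added after their values were seen, as were some markers. Alternatives covered the pseudocount, the detection level, the scaling, the fold and each pool alone.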

Additional observations from a re-analysis of the deposited data

How the results depend on the processing

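The 29 detected genes became 30 at 0.5 RPKM, 26 at 5 RPKM and 31 with values rescaled to the same sum in each pool, as in TPM, and 29 to 30 with either pool alone. The absence of 2-fold differences held under all 8 alternatives tried, including a 1.5-fold rule, no filter and other scalings. All 8 use the same 2 libraries, and a count of 0 in 29 genes is near the 2.56% of all detected genes. The median log2 ratio of pool 1 over pool 2 ranged from -0.015 (5 RPKM or no filter) to 0.066 (trimmed mean of log ratios set to 1), so its sign is not fixed. The median level of 3.65 was 3.75 with a pseudocount of 1, 4.71 after that rescaling, and 3.63 to 3.68 with either pool alone. With a pseudocount of 1 the log2 ratio of Nr1h2 over Nr1h3 was 5.003 and that of Soat1 over Soat2 3.52. With the smallest whole reads, not divided by length, the ratios were 6.00 for Soat1 over Soat2, 1.46 for Insig2 over Insig1 and 1.01 for Abcg1 over Abca1; these carry gene length, and the smallest reads may be a fraction of the true ones. With either pool alone the 5 ratios kept their sign, over ranges of 5.80 to 6.01 (Nr1h2 over Nr1h3), 0.74 to 0.93 (Srebf2 over Srebf1), 0.28 to 0.76 (Insig2 over Insig1), 4.37 to 4.86 (Soat1 over Soat2) and 1.496 to 2.13 (Abcg1 over Abca1). Depth limits Nr1h3 and Soat2, whose counting intervals of the fold were 0.45 to 1.18 and 0.33 to 1.07. Leaving out a pool leaves no ratio between the pools, so those results have no such alternative.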

Other observations

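Farnesyl and geranylgeranyl pyrophosphate, made from the same mevalonate, also anchor signalling proteins such as small GTPases to membranes. All 11 genes listed for this branch were detected, against 40.5% of all genes. Fnta, the shared alpha subunit of the prenyltransferases, was highest at 51.3 RPKM in pool 1 and 54.8 RPKM in pool 2, followed by Zmpste24 and Rce1, proteases that trim prenylated proteins, at 39.6 and 36.5 RPKM in pool 1 and 43.9 and 33.8 in pool 2. Pdss1, which builds the side chain of coenzyme Q, was lowest at 1.57 and 1.42 RPKM. The median log2 ratio of pool 1 over pool 2 was -0.15, against -0.044 for all detected genes. None of the 11 was 1.5-fold apart, which is near the 8.45% of all detected genes.

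Of 6 oxysterol genes, 2 were detected, not far from the share of 40.5% among all genes. Gpr183, the receptor through which lymphocytes follow the oxysterol 7alpha,25-dihydroxycholesterol, was at 49.9 RPKM in pool 1 and 51.0 RPKM in pool 2. Hsd3b7, which breaks that ligand down, was at 2.79 and 3.32 RPKM. Enzymes that make oxysterols were near the floor: Ch25h had at least 2 reads in pool 1 and 0 in pool 2, Cyp7b1 at least 6 and 1, and Cyp27a1 at least 12 and 5.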
